A study of Rattus norvegicus with 8 samples.

Results

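The 10 genes described here are collagen and matrix genes of fibroblasts, with a pair of genes that mark the fibroblasts of the leptomeninges: Col1a1, Col1a2, Col3a1, Col6a1, Dcn, Lum, Bgn, Mgp, Aldh1a2 and Slc6a13. They were chosen by name, out of 26514 gene names on the array, and are measured by 12 of its 30367 different probes, 2 of them for Col1a1, 2 for Bgn and 1 for each of the other 8 genes. All 12 were well above background in all 8 rats and so belong to the 23678 probes tested. The arrays are Agilent arrays of 1 colour that measured RNA of the lumbar spinal cord, 1 array per rat. The 4 stressed rats went through daily water avoidance (WA) stress for 10 days, in which a rat stands on a small platform in a cage filled with water, and their tissue was taken 24 h after the last session. The other 4 rats were controls. All 8 were male Wistar rats of 12 weeks, with no transgene or drug in either group. The cord was flushed out of the spine with saline, and according to the study's methods the meninges were taken off before the lumbar segments were dissected.

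Fibrillar collagens form the tensile fibres of connective tissue. Small leucine-rich proteoglycans such as decorin, lumican and biglycan bind these fibres and set their width and spacing. In the central nervous system such genes are known from the fibroblasts of the meninges, of the larger vessels and of the nerve roots, and hardly from neurons or glia. Leptomeningeal fibroblasts also make retinoic acid and carry transporters for GABA and taurine.

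The probes of the array are 60 bases long, and the 5 printed here are those in which related genes can be compared or in which a gene's coding sequence ends. The first is the 5′ probe of Col1a1 (chr10:83637956-83638015, rn4, plus strand), and it is set beside the probe of Col3a1 (chr9:44317465-44317524, rn4, plus strand), with the longest run of bases shared by the pair in capitals.
Col1a1, 5′ probe: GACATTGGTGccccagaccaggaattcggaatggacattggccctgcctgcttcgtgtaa
Col3a1: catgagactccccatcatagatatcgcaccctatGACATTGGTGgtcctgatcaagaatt
The shared run is 10 bases long, and when the probes are laid over each other at that run, 21 of 26 overlapping bases are the same. The Col1a1 probe ends on a stop codon in its first reading frame. Dcn and Lum can be laid over each other in the same way, and there the capitals mark a run of 12 bases.
Dcn: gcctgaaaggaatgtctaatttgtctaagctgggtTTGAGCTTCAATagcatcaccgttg
Lum: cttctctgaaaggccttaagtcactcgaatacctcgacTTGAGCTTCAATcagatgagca
Of the 57 bases that then overlap, 30 are the same, and both proteins are built of leucine-rich repeats. The Dcn probe lies at chr7:35037331-35041132 and the Lum probe at chr7:35086409-35086468 (rn4, plus strand), 45276 bases apart. As the first interval is longer than 60 bases, the Dcn probe is split in the genome. In the RefSeq genes of GRCr8, 0 protein-coding genes lie between these genes. The 5′ probe of Bgn (chrX:159392152-159392211, rn4, plus strand) is shown with its closing stop codon in capitals, as the signal of this probe departs from that of the other Bgn probe, which starts 1200 bases further 3′ in the transcript.
Bgn, 5′ probe: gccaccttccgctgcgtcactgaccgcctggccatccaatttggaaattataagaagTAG

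The other probes lie, on rn4, at chr10:83639260-83639319 (Col1a1, 3′ probe), chr4:29428206-29428265 (Col1a2), chr20:12337772-12337831 (Col6a1), chrX:159393349-159393408 (Bgn, 3′ probe), chr8:75771061-75771120 (Aldh1a2) and chr4:157771827-157771886 (Slc6a13), all on the plus strand, and at chr4:173910827-173910886 (Mgp) on the minus strand. Exons and UTRs were not analysed here, as no genome of this build was used. With Col1a2, Mgp and Slc6a13 on chromosome 4 and Dcn and Lum on chromosome 7, the 10 genes lie on 7 chromosomes, so that most of them are not neighbours.

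RefSeq promoters of GRCr8 matched 4 of the 10 genes (Col1a2, Lum, Aldh1a2 and Col6a1). As the 10 genes varied together across rats (values below), their promoters were searched for a CCAAT box, the site of nuclear factor Y (letters CCAAT, or ATTGG on the other strand), and for a TATA box (letters TATAAA, or TTTATA), in the 250 bases before the annotated start. The first was found in 3 of the 4 (Col1a2, Lum and Aldh1a2) and in 34% of all 33469 promoters, and the second in 1 of the 4 (Col1a2) and in 12.9% of all. The stretch of 110 bases of Col1a2 that holds both is shown, with the matches in capitals (chr4:33518307-33518416, GRCr8, plus strand).
Col1a2 promoter: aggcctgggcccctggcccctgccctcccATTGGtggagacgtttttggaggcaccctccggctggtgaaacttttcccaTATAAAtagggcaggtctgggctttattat
These matches are descriptions of letters only.

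Levels below are log2 signals minus the 75th percentile of the array, so 0 is the brightness of a spot at that percentile, and differences are given as stressed minus control. A probe's level depends on the probe, so levels are compared between rats and not between genes. The 75th percentile itself was 2152 ± 228 (SD, n = 4) signal units in control and 1861 ± 88.5 (SD, n = 4) in stressed rats, and each array had 23005 to 24066 probes well above background. Precision is limited by the number of arrays. Stressed rats filled row 1 and control rats row 2 of the single slide used, so slide row and group cannot be told apart. All 11 spinal cord genes measured, among them Hoxd10, Chat, Gad1 and Mbp, were tested in the same arrays. On the first principal component, control replicate 2 (45.8) lay with the stressed rats (8.49 to 34.9) and away from control replicates 1, 3 and 4 (-56.4 to -39.6), so the results are also given without it.

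By the probe that stands for each gene, all 10 genes had a lower mean in stressed than in control rats. The 5′ probe of Bgn was higher (0.42 ± 0.20, SE, limma adjusted p = 0.284). As the genes varied together across rats (values below), 10 of 10 are not 10 independent results. Moreover, limma called none of their probes at FDR below 0.1. At this threshold it called 872 of the 23678 probes (3.68%), 0 of the 12 probes of these genes, and also 0 of the 12 at an unadjusted p below 0.05, which 20.3% of all probes passed. The groups overlapped at all 12, while they did not overlap at 12.1% of all tested probes. The 10 differences ran from -0.94 to -0.10 with a median of -0.30, beside a median of 0.07 over all tested probes, of which 39.6% were lower in stressed rats. Without control replicate 2 the 10 genes were again lower in stressed rats (median -0.38). Without control replicate 1, the rat with the highest level of all 10 genes, 5 of the 10 were lower and the median was -0.02. It was -0.13 without stressed replicate 1, with 8 of the 10 lower, -0.61 without control replicate 4 and -0.52 without stressed replicate 3, with 10 of 10 lower in both.

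Col3a1, the type III collagen found with type I in extensible tissue, differed most. Its level was 0.12, -2.02, -0.22 and -2.19 in control replicates 1 to 4 and -2.90, -1.96, -0.94 and -2.30 in stressed replicates 1 to 4. Thus control replicates 1 and 3 were high, 2 of the 4 stressed rats were below every control rat, and the groups overlapped. The difference was -0.94 ± 0.64 (SE, limma adjusted p = 0.417, exact permutation test p = 0.229). Between the highest and the lowest rat lay an 8.11-fold range. With a weight given to each array by limma, the difference was -1.36 and the adjusted p 0.0906, so that Col3a1 passed the threshold under that setting, under which 11980 of all probes did. Without control replicate 2 it was -1.26 (limma adjusted p = 0.188), and without control replicate 1 it was -0.55 (limma adjusted p = 0.685).

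Both chains of type I collagen were also highest in control replicate 1. The 3′ probe of Col1a1, which encodes the alpha 1 chain and here stands for the gene as its brighter probe, was at 0.04, -0.94, -0.62 and -1.95 in control rats and at -2.23, -1.24, -0.34 and -1.42 in stressed rats. Stressed replicate 3 was thus above 3 of the 4 control rats, and stressed replicate 1 was the lowest of all. The difference was -0.44 ± 0.50 (SE, limma adjusted p = 0.627), and between -0.80 and -0.13 with single arrays left out (without control replicate 4 and without stressed replicate 1). At the 5′ probe of Col1a1 the levels were -0.30, -1.32, -0.82 and -1.54 in control and -1.50, -1.19, -1.10 and -1.44 in stressed rats, which is a narrower range (2.37-fold, against 4.82-fold at the 3′ probe). Its difference was -0.31 ± 0.26 (SE, limma adjusted p = 0.513). Although the range differed, the probes of Col1a1 followed each other over the 8 rats (Pearson r = 0.861, Spearman rho = 0.929).
Col1a2, which encodes the alpha 2 chain, had levels of 0.99, 0.50, 0.12 and -0.94 in control and -0.78, 0.02, 0.85 and -0.50 in stressed rats. Here control replicate 2 was higher than control replicate 3, unlike in Col1a1 and Col3a1. The difference was -0.27 ± 0.48 (SE, limma adjusted p = 0.761). Col6a1, a chain of the beaded filaments of type VI collagen, lay between -3.16 and -2.02 in control rats (median -2.48) and between -2.99 and -2.10 in stressed rats (median -2.71). With a difference of -0.10 ± 0.27 (SE, limma adjusted p = 0.855) it was the gene of the 10 with the smallest change.

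**Figure D1:**
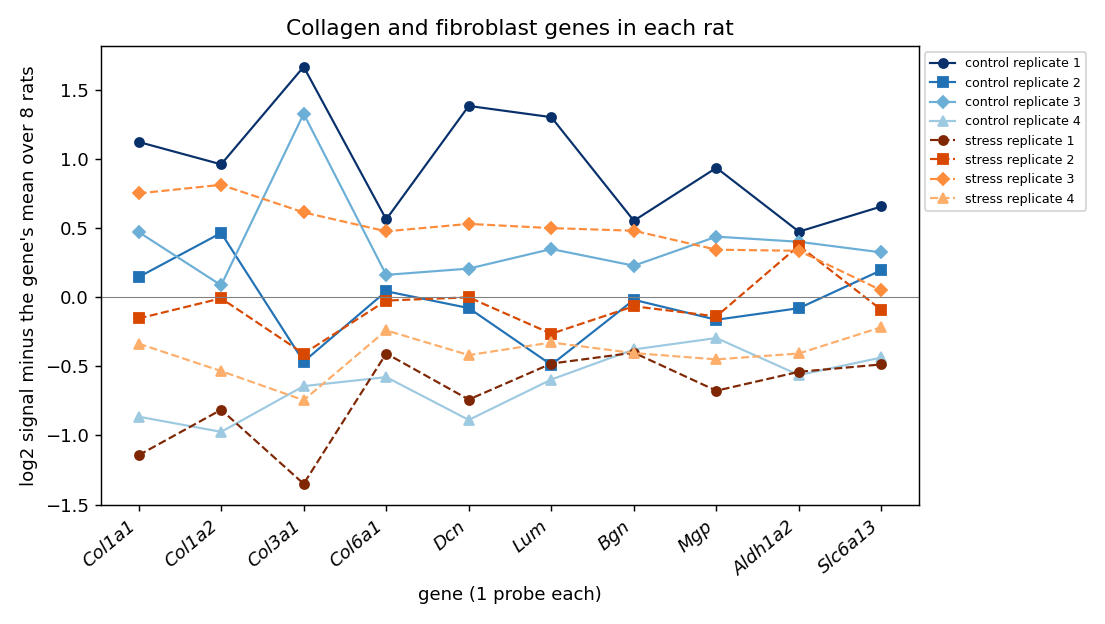
Level of each of the 10 genes (x axis, 1 probe each) in each of the 8 rats, as the log2 signal minus the gene's mean over the 8 rats (y axis). Each line is 1 rat, with solid blue lines for the 4 control and dashed orange lines for the 4 stressed rats. Control replicate 1 is highest in all 10 genes, and control replicate 4 and stressed replicates 1 and 4 lie below the mean in all of them.

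Dcn encodes decorin, a proteoglycan that binds collagen fibrils and also transforming growth factor beta. Its levels were 0.54, -0.93, -0.64 and -1.74 in control and -1.59, -0.85, -0.32 and -1.27 in stressed rats. All 4 stressed rats lay within the range of the control rats. The difference was -0.31 ± 0.48 (SE, limma adjusted p = 0.721), and it was 0.10 without control replicate 1. Dcn is measured by 10 spots on each array, and the SD between these spots had a median of 0.05 over the arrays and a maximum of 0.12, which is small beside the SD of 0.94 between control rats.
Lum, which encodes lumican, had a processed signal of 45.6 to 193 units over the 8 rats, before scaling. In log2 its levels were -3.47, -5.26, -4.42 and -5.37 in control and -5.25, -5.04, -4.27 and -5.10 in stressed rats. Again the 4 stressed rats lay within the control range, and the difference was -0.28 ± 0.43 (SE, limma adjusted p = 0.720). Without control replicate 1 it was 0.10.
Bgn encodes biglycan, and its brighter 3′ probe had levels of 2.27, 1.70, 1.95 and 1.34 in control and 1.32, 1.66, 2.20 and 1.32 in stressed rats. Its range between rats was the narrowest of the 10 genes (1.94-fold). The difference was -0.19 ± 0.26 (SE, limma adjusted p = 0.679).

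Mgp encodes matrix Gla protein, an inhibitor of calcification made by vascular and other mesenchymal cells. It was at 2.09, 0.99, 1.59 and 0.85 in control and 0.47, 1.01, 1.49 and 0.70 in stressed rats. Stressed replicates 1 and 4 lay below all control rats. The difference was -0.46 ± 0.32 (SE, limma adjusted p = 0.432, exact permutation test p = 0.257).
Aldh1a2 encodes a retinaldehyde dehydrogenase that makes retinoic acid, and it lay between -4.68 and -3.64 in control rats (median -3.96) and between -4.66 and -3.74 in stressed rats (median -4.15). The difference was -0.12 ± 0.30 (SE, limma adjusted p = 0.839). After a normexp background correction it turned to 0.03, and it was also above 0 without control replicate 1 (0.02).
Slc6a13 encodes the GABA transporter GAT2 of the meninges. It lay between -3.78 and -2.69 in control rats (median -3.08) and between -3.83 and -3.29 in stressed rats (median -3.50). All 4 stressed rats were below the control mean, and stressed replicate 1 was below every control rat. The difference was -0.37 ± 0.23 (SE, limma adjusted p = 0.380, exact permutation test p = 0.200), with a 95% interval from -0.90 to 0.16.

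**Figure D2:**
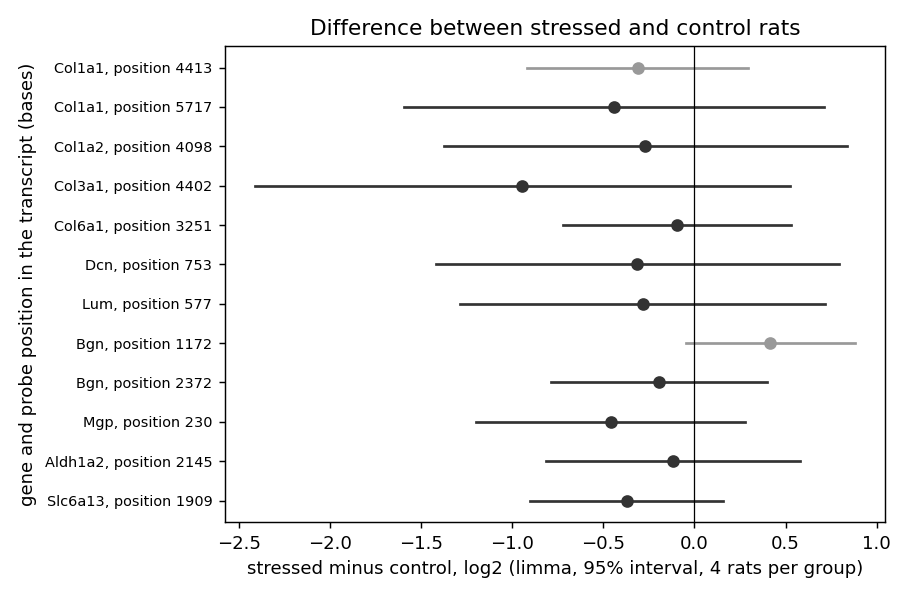
Stressed minus control difference (x axis, log2) of the 12 probes (y axis, gene and position of the probe in its transcript in bases), with points for limma's estimate and lines for its 95% interval, 4 rats per group. Black marks the probe that stands for its gene and grey the other probe of Col1a1 and Bgn. All 12 intervals include 0, and the 5′ probe of Bgn (0.42) is the only one of the 12 above 0.

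The spread between rats of 1 group was wide in these genes. The SD within groups, as estimated by limma's residuals, ran from 0.36 (Slc6a13) to 1.03 (Col3a1) on the log2 scale, with a median of 0.60 over the 10 genes, against 0.20 over all tested probes. Each of the 10 lay above the median probe, between the 77.0th and the 98.9th percentile of all tested probes. Thus the range from the lowest to the highest rat had a median of 3.38-fold in these genes and 1.56-fold over all tested probes. The median SD was 0.70 in control and 0.46 in stressed rats, and it was larger in control rats for 9 of the 10 genes, with Bgn as the exception (for Aldh1a2 both SDs round to 0.48). Over all tested probes the median SD was also larger in control (0.22) than in stressed rats (0.13). Without control replicate 1 the median SD within groups of the 10 genes was 0.48, and without control replicate 2 it was 0.61.
The spots of a probe differed little beside this. For the 11 probes with more than 1 spot, the median SD between spots of an array was between 0.02 (Bgn, 3′ probe) and 0.11 (Col1a2). The largest single value was 0.49 at Lum.

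**Figure D3:**
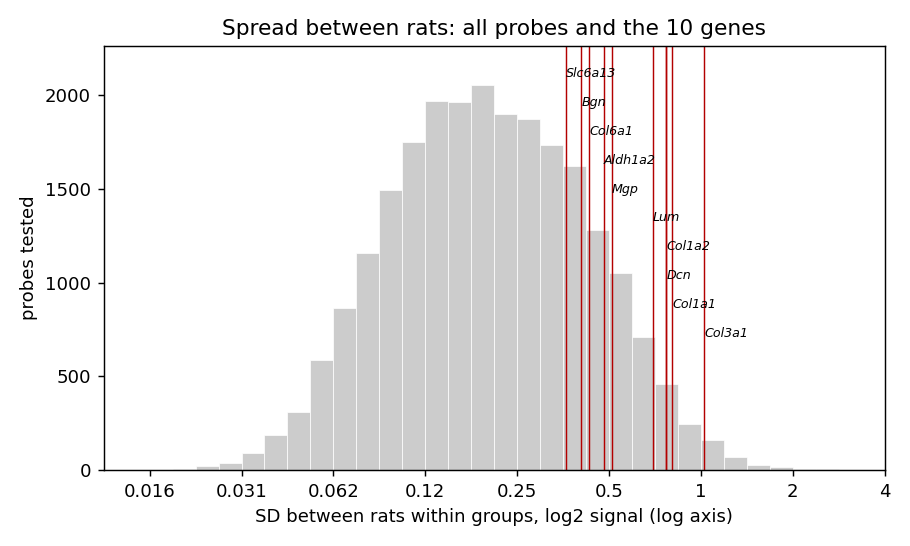
SD between rats within groups (x axis, log2 signal, on a log axis) of all 23678 tested probes as grey bars (y axis, number of probes), with 1 red line for each of the 10 genes. The 10 genes lie to the right of the centre of the distribution, from Slc6a13 at 0.36 to Col3a1 at 1.03.

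The same rats were high or low in all of these genes. Control replicate 1 ranked first of 8 in 10 of the 10 genes, and control replicate 3 and stressed replicate 3 were among the 3 highest in 9 and in 8 genes. Control replicate 4 and stressed replicate 1 were among the 3 lowest in 10 of 10 and stressed replicate 4 in 9. Expressed as the mean over the 10 genes, each centred on its own mean, the level was 0.96, -0.04, 0.40 and -0.62 in control replicates 1 to 4 and -0.70, -0.08, 0.49 and -0.41 in stressed replicates 1 to 4. High and low rats were thus found in both groups.
Over the 45 pairs of these genes the median Pearson r across the 8 arrays was 0.896 (0.754 to 0.981), and the median Spearman rho was 0.905 (0.667 to 1). An r of at least 0.8 was reached by 42 of the 45 pairs (93.3%), and by 6.12% of all pairs of the 20686 gene names tested, whose median r was 0.05. After each gene was centred on its group mean, the median r was 0.912. It was 0.942 within the 4 control and 0.959 within the 4 stressed rats. Without control replicate 2 the median was 0.933. When the 2 rats farthest from the median of each pair's first gene were left out, the median r was 0.845 (0.595 to 0.989), and 30 of the 45 pairs were at 0.8 or above.

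The closest pair was Col3a1 and Mgp, with r = 0.981 (exact permutation test, p = 2.48e-05, the smallest that the orderings of 8 arrays allow) and rho = 1, and with r = 0.989 without the 2 farthest rats. Col6a1 followed Col1a2 (r = 0.970, exact permutation test p = 0.000347) and Col1a1 (r = 0.967, exact permutation test p = 0.000372). The weakest pair was Col1a2 and Col3a1, 2 fibrillar collagens, with r = 0.754 (exact permutation test, p = 0.0369) and rho = 0.810, and with r = 0.645 without the 2 farthest rats. Control replicates 2 and 3 changed places between these genes, as the values above show. The 3 proteoglycans had a median r of 0.937 with each other. Pairs with Aldh1a2 or Slc6a13, which encode no matrix protein, had a median of 0.872. These p values are unadjusted, for 45 pairs computed.
The genes followed a similar order of rats with different amplitude. When each gene was regressed on the mean of the other 9, the slope was 1.84 for Col3a1, 1.35 for Col1a1, 1.25 for Dcn and 1.14 for Col1a2, and it was 0.59 for Slc6a13, 0.62 for Bgn, 0.64 for Col6a1 and 0.66 for Aldh1a2. These slopes rest on 1 probe for each gene, and amplitude can differ between probes of a gene. At Col1a1 the range between rats was 2.37-fold at the 5′ probe and 4.82-fold at the 3′ probe. The correlation with the mean of the other 9 was lowest in Aldh1a2 (r = 0.882) and highest in Col1a1 (r = 0.974, rho = 1).

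**Figure D4:**
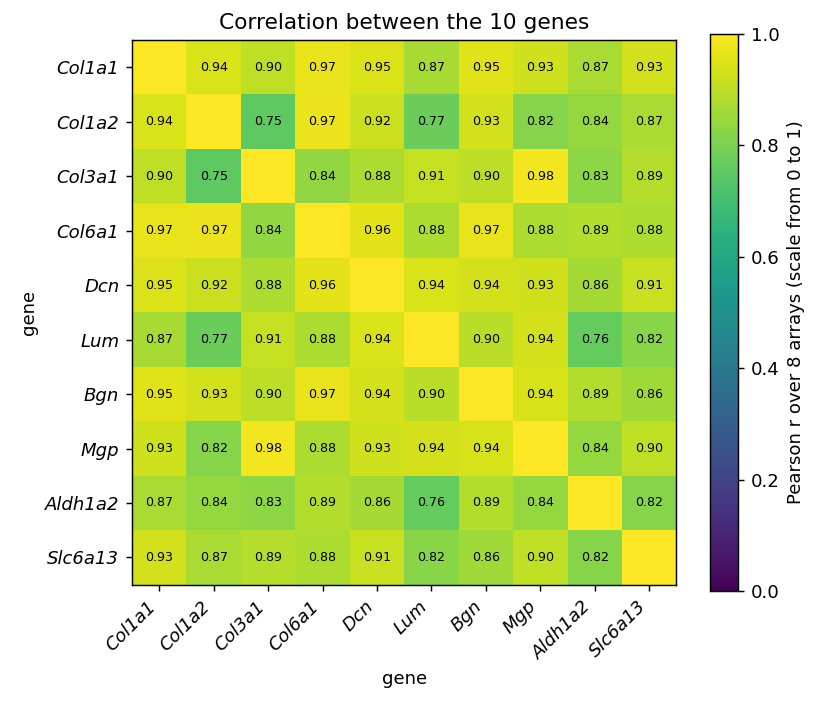
Pearson r across the 8 arrays between each pair of the 10 genes (both axes), with the value in each cell and a colour scale from 0 to 1. Most cells lie above 0.8, and the lowest are those of Col1a2 with Col3a1 (0.75), Lum with Aldh1a2 (0.76) and Col1a2 with Lum (0.77).

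Of 20686 gene names tested, 11779 are symbols also found in the RefSeq genes, other than locus and clone identifiers and the 10 genes themselves. Among these, the 10 whose level was most like the mean of these genes (each scaled to an SD of 1) over the 8 arrays were Cpz (r = 0.988), S100a6 (0.982), Plac9 (0.981), Igf2 (0.981), Cldn19 (0.973), Myoc (0.972), Cdh1 (0.971), Itgbl1 (0.970), Cfd (0.969) and Cp (0.969). Igf2, a growth factor of the leptomeninges, and Cldn19, a tight junction protein of peripheral myelin, are also on the lists used below. None of these 10 genes passed the test between stressed and control rats.

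Further genes of the matrix were counted on lists. Of 16 other collagens, 14 were tested, 11 of them were lower in stressed rats, and limma called 0 at FDR below 0.1 (2 passed an unadjusted p below 0.05). The median difference was -0.28. The largest was -0.72 ± 0.22 (SE, limma adjusted p = 0.156) at Col5a1, a chain that starts collagen fibrils, and the next -0.48 ± 0.43 (SE, limma adjusted p = 0.540) at Col15a1, a basement membrane collagen. Of the 14, 6 had an r of at least 0.8 with the mean of the 10 genes, among them Col15a1 (0.966), Col6a2 (0.957) and Col18a1 (0.932). Col4a2, a basement membrane chain, was at -0.11 and Col16a1 at 0.14. The other collagens therefore did not all follow the 10 genes.
Of the 16 collagen processing enzymes tested, 14 were lower in stressed rats, and limma called 0 at FDR below 0.1 (1 at an unadjusted p below 0.05). Their median difference was -0.14. The largest were -0.32 ± 0.28 (SE, limma adjusted p = 0.522) at Loxl1, which cross-links elastin, and -0.27 ± 0.12 (SE, limma adjusted p = 0.251) at Plod3, a lysyl hydroxylase. Among 18 other proteoglycans and glycoproteins of the matrix, 12 were lower and 0 were called (3 at an unadjusted p below 0.05), with a median of -0.06. Fbln1, which encodes fibulin 1, differed by 2.09 ± 0.64 (SE, limma adjusted p = 0.148). Its signal was dim, at -6.89, -4.45, -6.62 and -7.54 in control replicates 1 to 4. Control replicate 2 lay within the range of the stressed rats (-5.06 to -3.75). Eln, which encodes elastin, differed by -0.64 ± 0.45 (SE, limma adjusted p = 0.436).
Among 22 other genes of meningeal fibroblasts, 11 were lower, 0 were called (2 at an unadjusted p below 0.05) and the median was 0.00. Igf2 differed by -0.42 ± 0.37 (SE, limma adjusted p = 0.527). Only 5 of the 22 had an r of at least 0.8 with the mean of the 10 genes, among them Igf2, Bmp7 (0.952), Igfbp2 (0.928) and the transcription factor Foxc1 (0.906). Zic1 was at -0.45 and Slc6a12, a relative of Slc6a13, at -0.42. Of the 9 regulators in the transforming growth factor beta pathway, 4 were lower in stressed rats, 3 passed an unadjusted p below 0.05 and the median difference was 0.02. At FDR below 0.1 limma called 1, the growth factor Tgfb1, with a difference of -0.48 ± 0.11 (SE, limma adjusted p = 0.0860). The other 2 with an unadjusted p below 0.05 were higher, namely Ltbp1, a binding protein of the latent growth factor (1.05 ± 0.29, SE, limma adjusted p = 0.123), and Smad2, which carries its signal (0.62 ± 0.16, SE, limma adjusted p = 0.105). The r of Tgfb1 with the mean of the 10 genes was 0.539. With 1 of 9, the share on this list was above the 3.68% of all probes, but it rests on a single gene.

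Markers of other cells that the tissue could hold were set beside the 10 genes. In all, the 12 lists other than the 10 genes held 125 tested genes. Of these, limma called 4 at FDR below 0.1, beside 3.68% of all tested probes. They were Tgfb1, Rgs5 of pericytes (0.47 ± 0.10, SE, limma adjusted p = 0.0784), Pecam1 of the endothelium (0.41 ± 0.09, SE, limma adjusted p = 0.0885) and Tnnt3 of skeletal muscle (-1.09 ± 0.23, SE, limma adjusted p = 0.0757). Single genes do not stand for their lists. Of the 8 pericyte and smooth muscle genes tested, 5 were lower in stressed rats (median difference -0.23). Among the 8 endothelial genes 2 were lower (median 0.12), and among the 4 skeletal muscle genes 3 (median -0.09).
The mean of the 6 Schwann cell genes tested had the highest r of the 12 lists with that of the 10 genes (r = 0.974, rho = 0.976, and r = 0.940 without control replicate 1 and stressed replicate 1, the 2 rats farthest out). The processing enzymes had the same rho, and without these 2 rats the other collagens had nearly the same r (0.939). It was 2.69, 0.52, 0.63 and -1.95 in control replicates 1 to 4 and -1.63, -0.38, 1.04 and -0.92 in stressed replicates 1 to 4. All 6 were lower in stressed rats, with 0 called and 0 at an unadjusted p below 0.05. The summed level of the 6, in multiples of the array's 75th percentile, was between 7.03 and 73.4 in control and between 6.81 and 21.8 in stressed rats. Genes were tested only if well above background on at least 4 arrays, so this holds for all 6 by selection. Some were dim, such as Egr2, at -9.18 in control replicate 4 and -5.00 in control replicate 1. The part of nerve root RNA in the level of the 10 genes was not tested.
For the other lists the correlation of the list's mean with the mean of the 10 genes was r = 0.944 (rho = 0.833) for the other collagens, 0.941 (rho = 0.976) for the processing enzymes, 0.839 (rho = 0.857) for the other matrix proteins and 0.861 (rho = 0.905) for the other meningeal genes. It was 0.740 (rho = 0.833) for pericytes and smooth muscle, 0.660 (rho = 0.810) for red blood cells, 0.494 (rho = 0.50) for the growth factor pathway and 0.215 (rho = 0.262) for endothelial cells. Cartilage and bone (r = 0.01, rho = 0.05) and skeletal muscle (r = 0.01, rho = 0.05) were lowest in size, and the spinal cord genes were at r = -0.561 (rho = -0.595). Without control replicate 1 and stressed replicate 1, however, r was 0.565 for cartilage and bone, 0.431 for skeletal muscle and -0.214 for the spinal cord genes, and it was between 0.392 and 0.939 for the other 8 lists of this paragraph. Single genes of the matrix and meningeal lists followed the 10 genes less closely than the list means. Their median r was 0.781 for the other collagens and 0.496 for the processing enzymes. It was 0.637 for the other matrix proteins and 0.444 for the other meningeal genes. Of the 16 processing enzymes, 3 had an r of at least 0.8 and 2 had an r below 0. For the pericyte and smooth muscle genes the median r was 0.224. Tagln (0.887), Acta2 (0.820) and Myh11 (0.741) were highest on that list. Its other genes lay between -0.302 (Rgs5 of pericytes) and 0.348 (Pdgfrb). The r of that list's mean therefore does not hold for its genes in general, and pericyte genes were not tested as a list of their own. The 4 tested genes of cartilage and bone summed to between 0.505 and 0.629 and those of skeletal muscle to between 0.148 and 0.213 in all 8 rats, while Ibsp, Matn3, Myh2 and Myh4 were well above background on fewer than 4 arrays. In bulk tissue, fewer cells of a type and less RNA per cell cannot be told apart.
Measures of the whole array were also set beside the 10 genes. Their mean correlated with the first principal component at r = -0.345 (rho = -0.310) and with the 75th percentile of the signal at r = 0.259 (rho = 0.238). For each array the median of 5′ minus 3′ log2 signal was also taken, over 1885 transcripts whose probes lie 300 bases or more from each other, and centred over the arrays. It was between -0.30 and -0.18 in control replicates 1, 3 and 4, 0.22 in control replicate 2 and between 0.09 and 0.17 in stressed rats, and it correlated with the mean of the 10 genes at r = -0.410 (rho = -0.357). With it as a covariate, 6 of the 10 genes were lower in stressed rats and 0 of the 12 probes were called, with a median difference of -0.04. The median over all tested probes also moved in this fit, from 0.07 to -0.04. Apart from control replicate 2 the covariate split the rats as the groups do, so this fit can hardly separate them. The SE of Col1a1, for example, was 0.71 with the covariate and 0.50 without it.

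The probes of Bgn did not follow each other. At the 5′ probe, which ends on the stop codon printed above, the levels were -2.29, -1.56, -2.35 and -2.49 in control and -1.77, -1.80, -1.55 and -1.90 in stressed rats. The 4 stressed rats were close together and above control replicates 1, 3 and 4, and control replicate 2 lay among them. The difference was 0.42 ± 0.20 (SE, limma adjusted p = 0.284, exact permutation test p = 0.114), against -0.19 at the 3′ probe. Without control replicate 2 it was 0.62 ± 0.10 (SE, limma adjusted p = 0.00431) and with array weights 0.59 ± 0.09 (SE, limma adjusted p = 0.00271), so that the probe passed the threshold in both of these fits. Without control replicate 2, limma called 10015 of all 23678 tested probes, and with array weights 11980, so a call in these fits was common. Control replicate 2 had been singled out as it lay with the stressed rats on the first principal component. The fit without it is therefore no independent support for a difference.
Over the 8 arrays the probes of Bgn correlated at r = 0.01 (rho = 0.10). The 5′ probe correlated with the mean of the 10 genes at r = -0.07, while the 3′ probe, which is part of that mean, did so at 0.975. The 5′ minus 3′ signal of Bgn followed the 5′ minus 3′ difference of the whole array (r = 0.884, exact permutation test p = 0.00434, adjusted over 2 genes p = 0.00868, rho = 0.786 with exact permutation p = 0.0279, adjusted p = 0.0559), though less so without control replicates 1 and 3, the 2 farthest arrays (r = 0.600). In Col1a1, whose probes are 1304 bases apart, it did not (r = 0.01, exact permutation test p = 0.977, rho = -0.05, exact permutation p = 0.935, and r = -0.411 without the same 2 arrays). The part of the 5′ minus 3′ difference of the arrays in the level of Bgn was not tested.

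**Figure D5:**
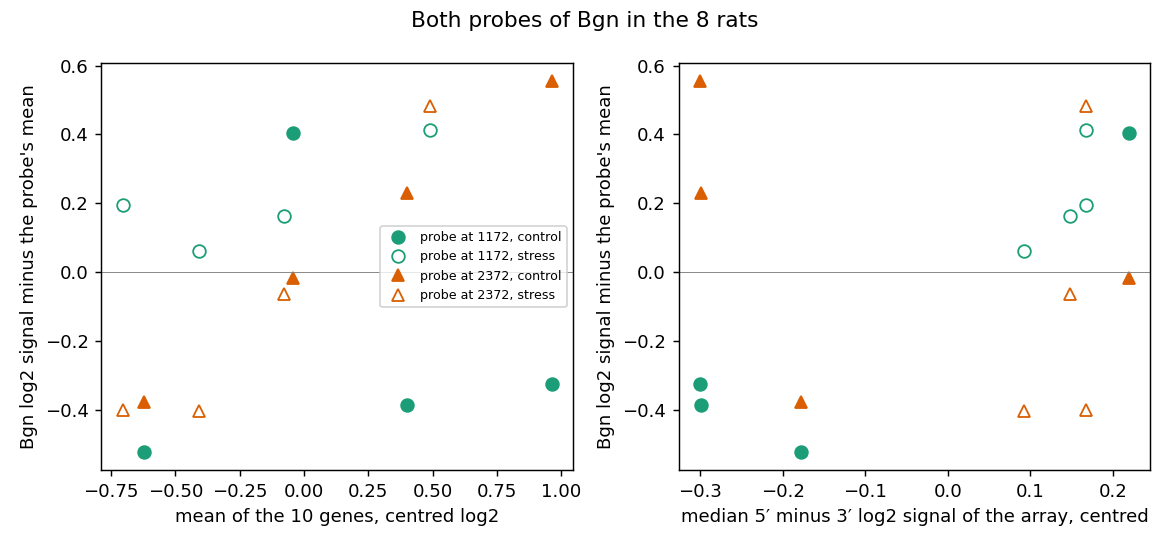
Log2 signal of both Bgn probes minus the probe's mean over 8 rats (y axis), against the mean of the 10 genes (left, centred log2) and against the median 5′ minus 3′ log2 signal of each array, centred (right). Green circles are the 5′ probe (position 1172) and orange triangles the 3′ probe (position 2372), filled for the 4 control and open for the 4 stressed rats. The 3′ probe rises with the mean of the 10 genes (r = 0.975) and the 5′ probe does not (r = -0.07).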

How the data were processed

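Spinal cord RNA of 4 stressed and 4 control rats was hybridised to 1 Agilent array per rat. The intensity that the authors deposited per spot was background-subtracted and detrended by Agilent Feature Extraction 10.7.3.1, per the file headers, and the value table deposited for all arrays holds the same signal rounded (within 0.05). Neither was normalized between arrays, as far as could be found. For later steps the paper names dChip.

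Here 4259 control spots were left out, outlier spots were set to missing, log2 signals were scaled to each array's 75th percentile, and spots were averaged per probe. Probes well above background (at least 0.5 of their spots) on at least 4 of 8 arrays were tested, and 10 probes missing on an array were not. Groups were compared with limma 3.58.1 in R 4.3.3 (package data.table, version 1.17.8), without covariates and with Benjamini-Hochberg adjustment over all tested probes at FDR below 0.1. Two-sided exact permutation tests used all 70 choices of 4 of 8 arrays, which allow no p below 0.0286, or all orderings for correlations. The fit was tested on simulated data.

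The brightest tested probe stands for a gene. All 10 genes are named, and of each further list of matrix genes the called genes, otherwise the largest differences. Genes beyond this rule, such as those named for a correlation, were picked after their values were seen. The members and lists were chosen with earlier results of these data known. Alternatives were a normexp background correction (offset 50), quantile normalization, the deposited table, other filters and variance models, array weights, a replicate block, a single probe for each symbol, the 5′ minus 3′ covariate and leaving out each array. The miRNA arrays were not analysed here, and some genes of the lists are not reported here.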

Additional observations from a re-analysis of the deposited data

How the results depend on the processing

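None of the 12 probes was called after normexp background correction or quantile normalization, from the deposited table, with either other filter, with a variance trend and robust estimation, with the unmoderated test or with the 5′ minus 3′ covariate, and none of the 10 tested with a single probe for each symbol. With array weights 2 were called (Col3a1 and the 5′ probe of Bgn), and with single arrays left out between 0 and 1 (the 5′ probe of Bgn without control replicate 2). Over all probes, where 872 passed, 231 passed after normexp, 3257 without a filter on dim probes, 1331 with the variance trend, 11980 with array weights, 2311 with the covariate and between 0 and 10015 with single arrays left out. The replicate block gave 0 calls among the 12 probes and 0 among all (4321 at an unadjusted p below 0.05). Same-numbered rats correlated at between -0.09 and 0.31, and control and stressed rats of different numbers at between -0.40 and 0.36. So few correlations cannot decide whether the numbers pair the rats. Same-numbered arrays shared a column of the slide. The median r between the 10 genes stayed between 0.850 and 0.933 and their median SD within groups between 0.477 and 0.659 under the background, normalization, filter, block, covariate and left-out settings, in which they were computed. The difference turned above 0 in Aldh1a2 after normexp (0.0251), in Col6a1 (0.0027), Dcn (0.0417), Lum (0.328) and Aldh1a2 (0.0789) with the covariate, and at the other probe of Bgn (0.42). With single arrays left out it ran from -0.641 to 0.005 in Col1a2, from -0.305 to 0.0759 in Col6a1, from -0.662 to 0.0958 in Dcn, from -0.531 to 0.102 in Lum and from -0.325 to 0.0424 in Aldh1a2, and it was above 0 in these 5 without control replicate 1 and in Col6a1 and Aldh1a2 also without stressed replicate 1. The other 5 genes kept their direction in these fits, with ranges of -0.80 to -0.13 in Col1a1, -1.32 to -0.55 in Col3a1, -0.65 to -0.22 in Mgp, -0.39 to -0.04 in Bgn (3′ probe) and -0.58 to -0.21 in Slc6a13. The cause was not tested. With 4 rats per group and this spread, differences of the size seen could not be told from 0.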
